A study of Mus musculus with 149 samples.

Results

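The Slc25 genes encode the mitochondrial carrier family, and 44 of them were followed here in single mouse liver cells. They are the entries of the deposited table whose symbol begins with Slc25a and a number; 47 of the 20308 mouse genes matched, and 3 of these were left out by the rule that set the list and were not analysed here. The rule reads symbols and no measured value, and it was set with earlier results of these data known. The carriers are small proteins of the inner mitochondrial membrane, built from a repeated pair of membrane helices, and most of them exchange a metabolite of the matrix for one of the cytosol. In hepatocytes, the parenchymal cells of the liver, they supply ATP export, phosphate and citrate transfer, the entry of amino acids for urea and glucose synthesis, and the import of cofactors and iron. Hepatocytes near the portal tract, where blood enters the lobule, and those near the central vein, where it leaves, carry out different parts of this metabolism.

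The cells came from 1 wild-type male C57BL/6 mouse of 8 weeks, untreated, whose liver was dissociated by a 2-step perfusion and spun at low speed to enrich hepatocytes. They were captured on Fluidigm C1 microfluidic chips of 3 trap sizes, which gave 80 cells from the large chip (17 to 25 µm), 30 from the medium chip (10 to 17 µm) and 39 from the small chip (5 to 10 µm). Values are the authors' normalised expected read counts, here called normalised values; the read depth of a cell is unknown. Each chip is 1 sample of 1 animal and cells are not replicates, so no test was run, no p-value is given, and every SD is a spread between cells.

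In the table the columns of all chips stand in 1 mixed order, which ran from cells high in Cyp2f2, a periportal cytochrome P450, to cells high in Cyp2e1, a pericentral one. Within a chip, Spearman's rho between column position and the value of Cyp2e1 was 0.86 in the large, 0.32 in the medium and 0.58 in the small chip, and that of Cyp2f2 -0.81, -0.66 and -0.72 in the same order of chips. Columns near the end of the order are called late below, and those near its start early. Which genes were used to set the order is not given in the sources used here, so a carrier may have taken part in it. The hepatocyte markers Alb, Apoa1, Apob, Ttr, Serpina1c, Fgb and Trf were above 0 in all 149 cells, and Hnf4a in 133.

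The chips differed in the number of genes above 0 per cell and in spike-ins, the synthetic RNAs added at lysis. A large-chip cell had a median of 7389.5 mouse genes above 0, a medium-chip cell 2306.5 and a small-chip cell 3087. Spike-ins took a median of 3.66%, 82.7% and 82.8% of the values of a cell, and less than 50% in 64, 7 and 12 cells. Results are therefore also given for these cells alone, called cells low in spike-ins. In the large chip, the number of genes above 0 had a rho of 0.22 with the column order and the spike-in share one of -0.37; for medium-chip cells these were -0.41 and 0.37, and for small-chip cells -0.20 and 0.27. The part of these quantities in the results below was not tested.

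Upstream sequences of 3 genes show members at both ends of the order: Slc25a47 and Slc25a1, which were higher in early cells of the large chip, and Slc25a21, which was higher in late cells. Each line gives the 250 bases before an annotated start, 5′ to 3′ on the gene's strand, from RefSeq on GRCm38.p6. Slc25a47 lies at chr12:108850879-108851128 on the plus strand, Slc25a1 at chr16:17928220-17928469 and Slc25a21 at chr12:57197473-57197722, both on the minus strand. The Slc25a47 window ends where the coding transcripts start; the annotated interval of the gene begins further upstream with non-coding transcripts, so the window lies inside that interval.
Slc25a47: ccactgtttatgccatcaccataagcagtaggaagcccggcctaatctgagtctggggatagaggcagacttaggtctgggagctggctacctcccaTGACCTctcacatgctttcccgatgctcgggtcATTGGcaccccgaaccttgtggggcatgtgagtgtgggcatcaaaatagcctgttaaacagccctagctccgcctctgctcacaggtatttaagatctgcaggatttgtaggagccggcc
Slc25a1: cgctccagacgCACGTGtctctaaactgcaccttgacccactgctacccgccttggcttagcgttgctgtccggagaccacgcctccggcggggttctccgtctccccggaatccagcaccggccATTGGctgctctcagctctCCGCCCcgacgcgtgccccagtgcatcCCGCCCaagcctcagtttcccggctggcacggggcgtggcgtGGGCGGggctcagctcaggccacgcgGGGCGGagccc
Slc25a21: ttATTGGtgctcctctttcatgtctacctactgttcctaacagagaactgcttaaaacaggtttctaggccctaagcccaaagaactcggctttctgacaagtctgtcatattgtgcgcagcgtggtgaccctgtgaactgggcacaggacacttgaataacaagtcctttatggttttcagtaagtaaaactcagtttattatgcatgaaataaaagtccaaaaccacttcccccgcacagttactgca
Capitals mark 5 motifs searched on both strands: the GC box, which reads GGGCGG or in reverse CCGCCC, the CCAAT box, in reverse ATTGG, the TATA box, which reads TATAAA or in reverse TTTATA, the E-box, which reads CACGTG on both strands, and the nuclear receptor half-site, which reads AGGTCA or in reverse TGACCT. The Slc25a1 window held 4 GC boxes, 1 CCAAT box and 1 E-box, and 70% of its bases were G or C. The Slc25a47 window held 1 CCAAT box and 1 half-site at 54.4% G or C, and the Slc25a21 window shown 1 CCAAT box at 43.2%. No matches overlapped in these windows. A second RefSeq window of Slc25a21, at chr12:57160644-57160893 and not shown, held 1 TATA box and none of the other motifs. RefSeq windows were matched for 33 of the 44 members, 42 windows in all. Some windows of the same gene overlap, as for Slc25a14 and Slc25a23, so the shares below count windows and not separate sites. The same E-box of Slc25a14 was counted in more than 1 window. A GC box stood in 69% of them, against 32.7% of the 32851 windows of all genes, a CCAAT box in 47.6% against 33.8%, and an E-box in 14.3% against 6.02%. The TATA box was found in 4.76% against 12.4%, and the half-site in 9.52% against 14%. A match describes the letters of the window and is no evidence of a bound site.

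Detection separated the family into members present in most cells and members listed at 0 nearly everywhere. Of the 44 members, 29 (65.9%) were above 0 in at least 20% of the 149 cells, and these are called measured; of all mouse genes 43.4% were. A further 11 members were above 0 in fewer cells, and 4 (9.09%) were listed at 0 in every cell, as were 26.9% of all mouse genes. By assigned role, 10 of 11 cofactor, glutathione and metal carriers were measured, and 7 of 10 members of the amino acid group. Of the di- and tricarboxylate carriers 4 of 6 were, and of the nucleotide and phosphate carriers 6 of 10. Of the 3 uncoupling-protein-like members 1 was measured, and of the other 4 members 1. A place in a group does not establish a substrate: the measured members of the amino acid group included Slc25a47 and Slc25a48.

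**Figure D1:**
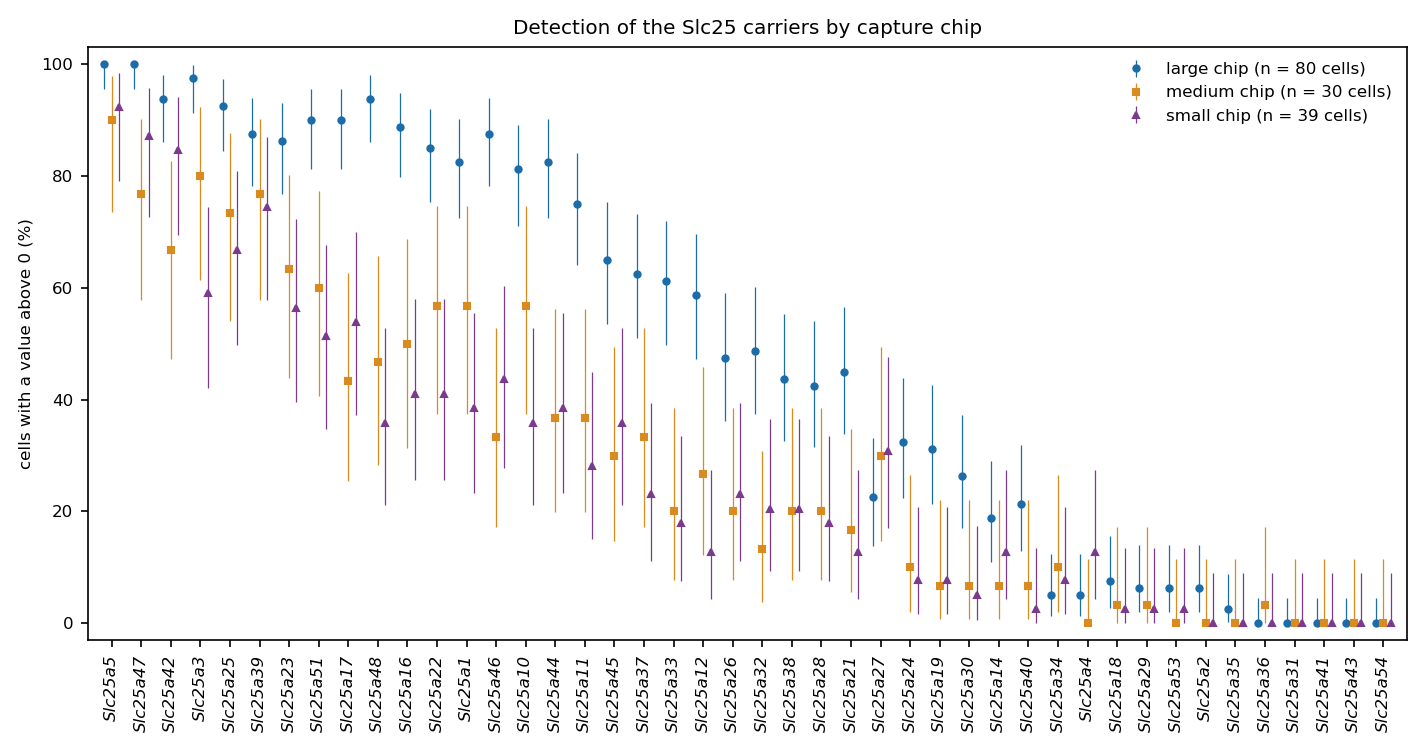
Percent of cells with a normalised value above 0 (y axis) for each of the 44 Slc25 members (x axis, sorted by their cells above 0 in all) in the large, medium and small chips; bars are exact Clopper-Pearson 95% intervals for counting error. Slc25a5 and Slc25a47 were above 0 in all 80 large-chip cells, and the last 4 members were at 0 in every cell of each chip.

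Close relatives often split between a measured and a scarcely detected gene. Slc25a5, an adenine nucleotide translocase that exchanges cytosolic ADP for matrix ATP, was above 0 in all 80 large-chip, 27 medium-chip and 36 small-chip cells. Its relative Slc25a4, known as the form of heart and muscle, was above 0 in 4, 0 and 5 cells, and Slc25a31, known from the testis, was listed at 0 in all. Of the ATP-magnesium/phosphate carriers, which set the matrix adenine nucleotide pool, Slc25a25 was above 0 in 122 cells, Slc25a23 in 110, Slc25a24 in 32 and Slc25a41 in none. The glutathione carrier Slc25a39 was above 0 in 122 cells and its relative Slc25a40 in 20. Of the glutamate carriers, Slc25a22 was above 0 in 101 cells and Slc25a18 in 8. Of the pyrimidine nucleotide carriers, Slc25a33 was above 0 in 62 cells and Slc25a36 in 1. The iron importers known as mitoferrins were both measured, Slc25a37 in 69 cells and Slc25a28 in 47.

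Besides Slc25a18, Slc25a4, Slc25a40 and Slc25a36, the members found in fewer than 20% of cells were Slc25a35 in 2, the ornithine carrier Slc25a2 in 5, Slc25a53 in 6, Slc25a29 in 7, Slc25a34 in 10, Slc25a14 in 22 and Slc25a30 in 25. Slc25a43 and Slc25a54 were, like Slc25a31 and Slc25a41, listed at 0 throughout. A value of 0 in this table may stand for a transcript too rare to be caught or one the counting did not assign.

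Of the 29 measured members, 28 (96.6%) were above 0 in a larger share of large-chip cells than of cells from either other chip, as were 96.1% of all measured genes. The exception was Slc25a27, an uncoupling-protein-like member, above 0 in 22.5% of the 80 large-chip cells (exact bounds 13.9% and 33.2%), in 30% of the 30 medium-chip cells (bounds 14.7% and 49.4%), and in 30.8% of the 39 from the small chip (bounds 17.0% and 47.6%), so the intervals overlap. In cells low in spike-ins 23 of 29 members (79.3%) and 67.2% of all genes had their largest share in the large chip. A large-chip cell had a median of 24 members above 0 (5 to 29), a medium-chip cell 11.5 (3 to 29) and a small-chip cell 11 (4 to 27). It followed the number of mouse genes above 0, with a rho of 0.87, 0.88 and 0.81.

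Levels between genes were compared per kilobase (kb) of the longest annotated coding transcript, in the large chip. Slc25a5 averaged 882 ± 504 normalised values per kb (SD, n = 80 cells; median 973), which was 51.9% of the sum over all members. Slc25a3, the phosphate carrier that feeds ATP synthesis, averaged 233 ± 385 per kb (median 166), and Slc25a47, a liver-enriched member, 208 ± 191 (median 192). With the union of all exons as the length, Slc25a47 ranked above Slc25a3, and with the spread of both between cells their order is not settled. Slc25a17, a peroxisomal cofactor carrier, followed at 77.5 ± 70.7 per kb and the glutathione carrier Slc25a39 at 58.6 ± 51.1, and these neighbours also overlap. No other member averaged more than 39.3 per kb, the value of the dicarboxylate carrier Slc25a10; its median was 6.40 and its SD 154, since 1 cell (large-chip cell 17) held 39.6% of its summed values.

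**Figure D2:**
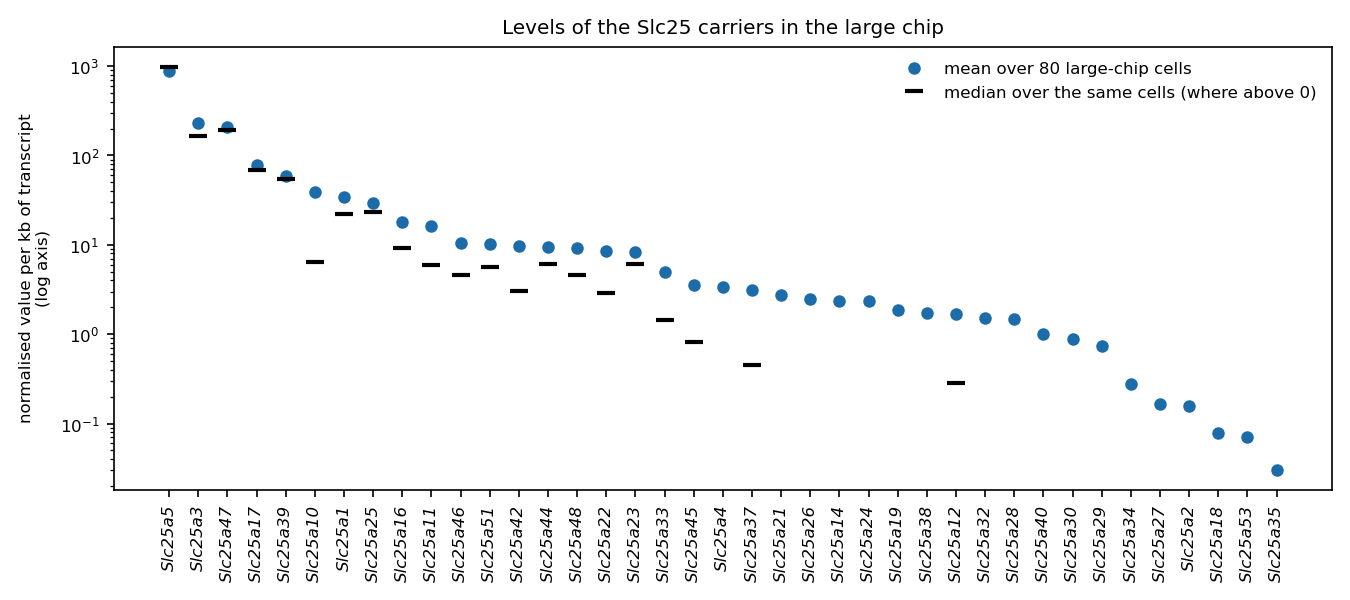
Normalised value per kb of the longest coding transcript (y axis, log scale) of the members above 0 in the large chip (x axis, sorted by the mean); circles are means over 80 cells and dashes medians where above 0. Slc25a5 stood at 882 per kb on average and the next member, Slc25a3, at 233.

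The citrate carrier Slc25a1, which exports citrate for fatty acid and sterol synthesis, averaged 34.1 per kb and Slc25a25 29.5 per kb. Slc25a16, linked to coenzyme A, averaged 17.98 per kb, and the oxoglutarate carrier Slc25a11, part of the malate-aspartate shuttle, 16.3 per kb. Slc25a46, an outer-membrane member that acts in mitochondrial dynamics, averaged 10.5 per kb, Slc25a51, the importer of NAD+, 10.2 per kb, and Slc25a44, a carrier of branched-chain amino acids, 9.54 per kb. Their cell-to-cell SDs were 10.4 to 44.2 per kb, as large as the means or larger, so their order is not settled.

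Added together, the 44 members took a median of 0.151% of the mouse signal of a large-chip cell (0.00973% to 0.374%), against 0.173% for medium-chip and 0.127% for small-chip cells. Slc25a5, Slc25a47 and Slc25a3 held a median of 69.8% of that sum in the large chip, 48.1% in the medium and 39.7% in the small chip. In the large chip the share was lower in late columns, with a rho of -0.52 in all 80 cells and -0.56 in the 64 low in spike-ins; for the medium and small chips rho was -0.064 and -0.20. The 16 latest large-chip cells gave a mean share of 0.137% ± 0.036 (0.101% to 0.225%) and the 16 earliest 0.202% ± 0.056 (0.140% to 0.374%), ranges that overlap. Over 5 consecutive blocks of 16 cells from the start to the end of the order, the mean share was 0.202%, 0.180%, 0.119%, 0.112% and 0.137%. In the third block only 7 of 16 cells were low in spike-ins, and a median of 3327 genes was above 0 there, against 7260.5 to 7861 in the other blocks.

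**Figure D3:**
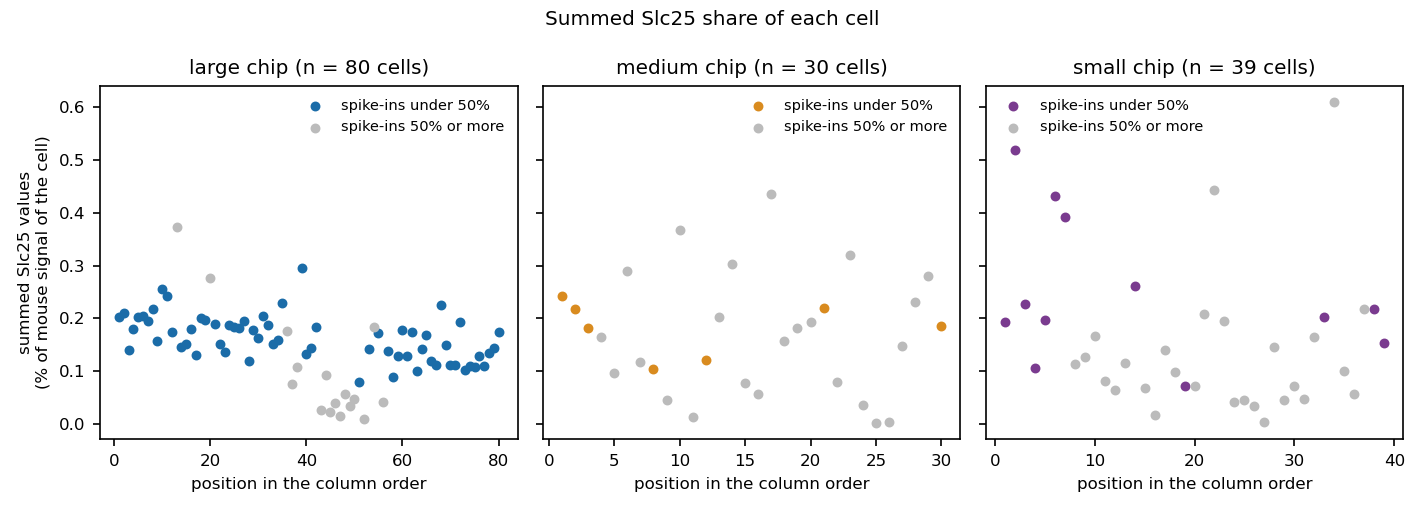
Summed values of the 44 members as a percent of the mouse signal of each cell (y axis) against its position in the column order (x axis, early to late), for the large, medium and small chips; grey points are cells with spike-ins at 50% or more. In the large chip the coloured points lie lower in the late columns, while most of the lowest points are grey and stand in the middle.

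In the position of single members, the early side held abundant carriers such as Slc25a5 and Slc25a47, and the late side held Slc25a21 and Slc25a37, at low levels. In the large chip 5 of 29 measured members (17.2%) had a rho of -0.3 or less, namely Slc25a47, Slc25a51, Slc25a5, Slc25a25 and Slc25a1, against 4.82% of all 8813 measured genes. Early position was not particular to these carriers. Among the hepatocyte markers, the large-chip rho was -0.61 for Alb, -0.56 for Trf, -0.52 for Fgb and -0.51 for Apoa1. It was -0.47 for Serpina1c, -0.38 for Apob, -0.33 for Ttr and -0.28 for Hnf4a, the only one short of -0.3. At a rho of 0.3 or more stood the 2 late members (6.9%), against 2% of all genes. Most of the family showed neither: the median rho was -0.024 over the members and -0.026 over all genes, with 16 members below 0 and 13 above. In the medium and small chips the medians were -0.15 and -0.068 for the members and -0.18 and -0.11 for all genes.

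Across chips, 6 members (20.7%) were early in every chip, with a negative rho in each and a mean of -0.2 or less: the 5 above and Slc25a12, the aspartate-glutamate carrier of the malate-aspartate shuttle. Of all genes 15.4% met this rule, so the members' share was near the background. In cells low in spike-ins 4 members (13.8%) met it, Slc25a47, Slc25a5, Slc25a12 and Slc25a17, against 12.5% of all genes; Slc25a1, Slc25a25 and Slc25a51 had a rho of 0.071, 0.46 and 0.14 in the 7 medium-chip cells. With the number of genes above 0 held fixed by partial correlation, 1 member (3.45%), Slc25a47, met it, against 6.48% of all genes. No member was late in every chip, against 0.692% of all genes. Late by this rule were 1 member, Slc25a26, in cells low in spike-ins, against 5.45% of all genes, and 1 member, Slc25a33, by partial correlation, against 1.77%.

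**Figure D4:**
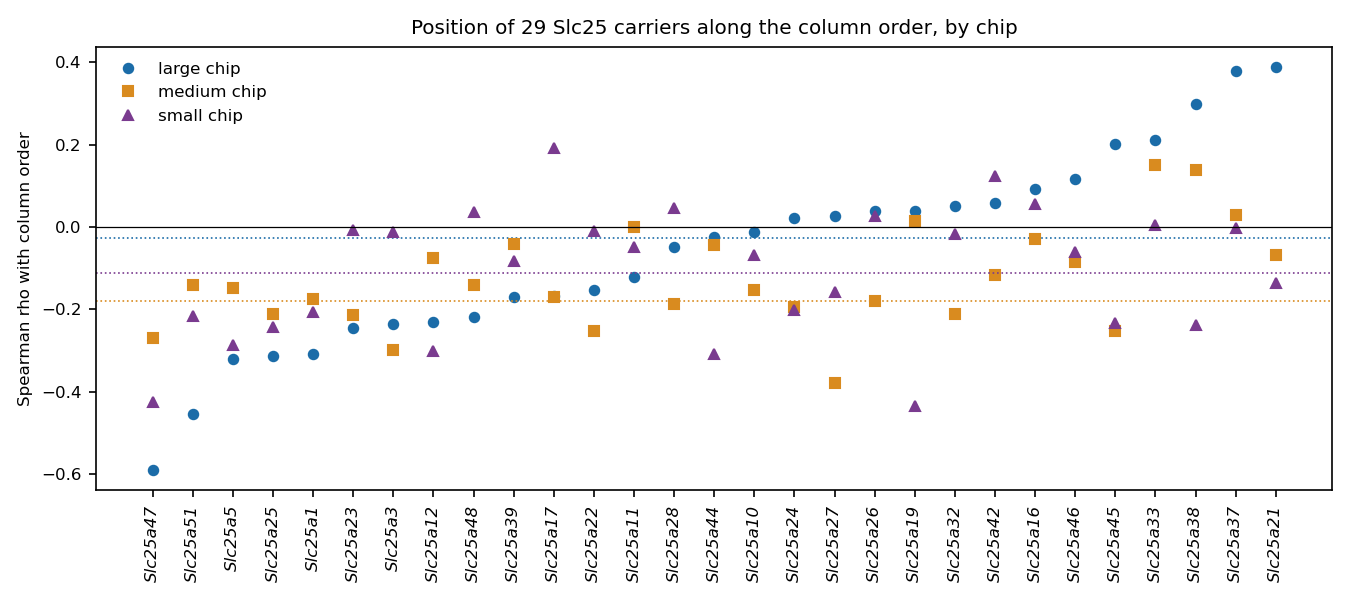
Spearman's rho between normalised value and column order (y axis) for the 29 measured members (x axis, sorted by the large chip) in the large, medium and small chips; dotted lines are the medians over all 8813 measured genes of each chip. Slc25a47 was lowest in the large chip at -0.59, and for the late members Slc25a21 and Slc25a37 the medium and small chips gave values near 0 or below.

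Slc25a47 (chr12:108836046-108856815, plus strand, mm10), whose transported substrate is still debated, had the strongest relation with the order in the family. In the 16 latest large-chip cells it ran from 49.1 to 289 with a median of 182, and in the 16 earliest from 242 to 870 with a median of 500. The ranges overlapped only between 242 and 289. The means were 178 ± 60.8 in late and 497 ± 158 in early cells (SD, n = 16 each), a log2 ratio of -1.47 on the log2(mean + 1) scale used for all ratios. Over the 5 blocks of 16 cells from start to end the medians were 500, 520, 182, 198 and 182. Of the 16 cells of the third block 7 were low in spike-ins, and over these the median was 498; over cells low in spike-ins the 5 medians were 510, 515, 498, 244 and 182. In those cells the values were thus lower in the last 2 blocks and not before.

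Its rho with the order was -0.59 in the large, -0.27 in the medium and -0.43 in the small chip. In the same order of chips it was -0.65, -0.21 and -0.62 in cells low in spike-ins, and -0.65, -0.048 and -0.39 with the number of genes above 0 held fixed. The medium-chip value of low-spike-in cells rests on 7 cells. In the small chip the 13 latest cells had a median of 22.99 (0 to 406), the middle 13 one of 10.2 and the 13 earliest 454 (39.4 to 1957).

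Slc25a51 (chr4:45395923-45408766, minus strand) was the second member of the early side. It ran from 0.48 to 143 with a median of 10.1 in the 16 latest large-chip cells, and from 6.93 to 257 with a median of 57.9 in the 16 earliest. The means were 23.6 ± 37.8 in late and 81.2 ± 69.3 in early cells, a log2 ratio of -1.74 between overlapping ranges. All 16 cells of each end had a value above 0, so the gap lay in the level and not in detection. Its correlation with the order was -0.45, -0.14 and -0.22 by chip, and 0.14 in the 7 medium-chip cells low in spike-ins.

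Slc25a1 (chr16:17925223-17928219, minus strand) ran from 4.78 to 79.7 with a median of 32.03 in the latest cells, and from 0 to 480 with a median of 76.1 in the earliest. Its means were 36.3 ± 21.8 in late and 107 ± 122 in early cells, a log2 ratio of -1.53. The early group held both the highest values and 1 cell at 0. By chip rho was -0.31, -0.17 and -0.21.

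Slc25a25 (chr2:32414487-32451445, minus strand) had a median of 75.1 (19.3 to 127) in the latest and 119 (47.97 to 291) in the earliest large-chip cells, with means of 75.2 ± 35.4 and 140 ± 69.8 and a log2 ratio of -0.89. Slc25a5 (chrX:36795651-36798807, plus strand) had a median of 1066 (672 to 2069) in the latest and 1454 (1028 to 2226) in the earliest cells. Its means of 1196 ± 387 in late and 1467 ± 314 in early cells gave a log2 ratio of -0.29, and they differed by less than 1 SD of either end. Both genes reached the -0.3 limit narrowly, at -0.31 for Slc25a25 and -0.32 for Slc25a5, and with Pearson's r on log2 values they were short of it at -0.23 and -0.18, as was Slc25a1 at -0.21. Slc25a12, the other member early in every chip, missed the limit at a large-chip rho of -0.23.

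**Figure D5:**
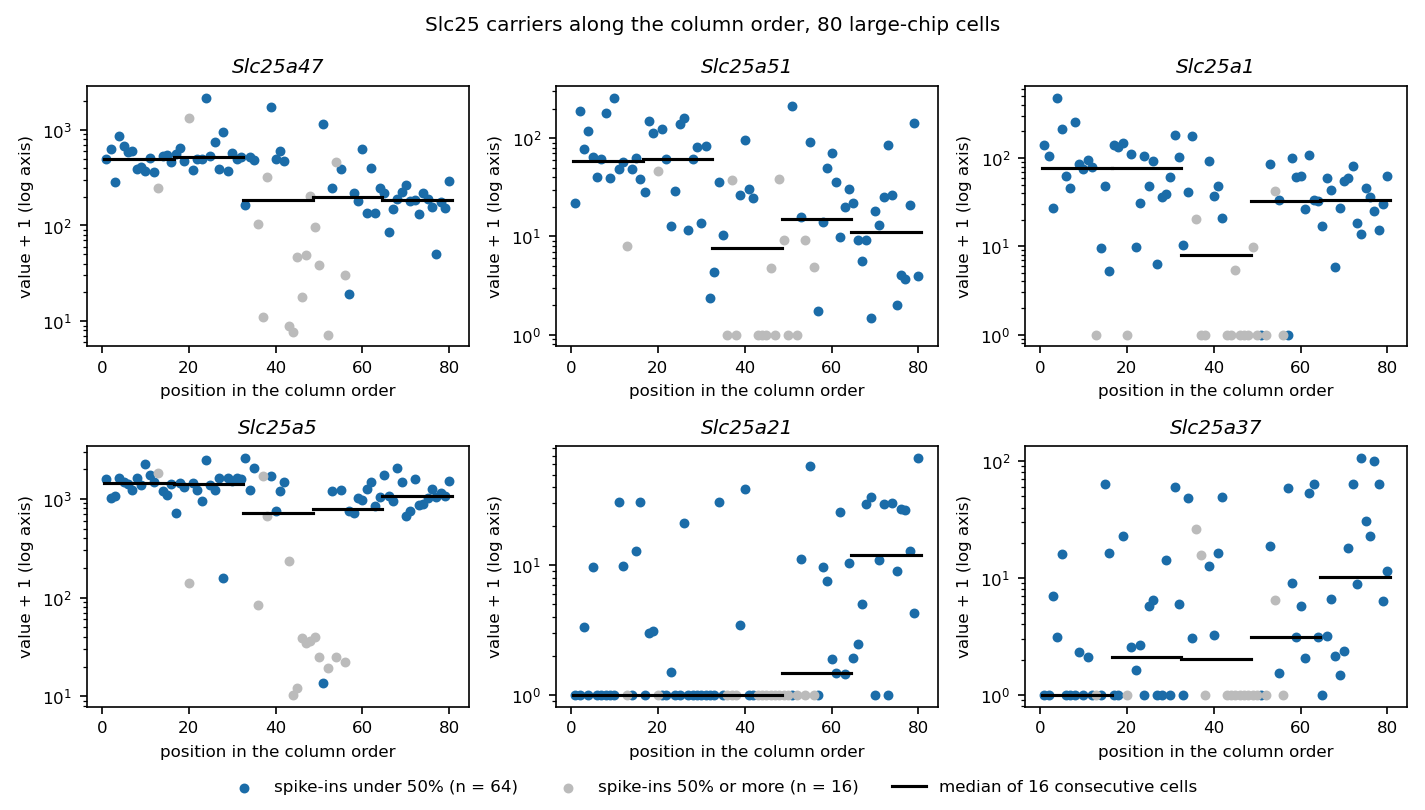
Normalised value + 1 (y axis, log scale) of 6 members in each of the 80 large-chip cells against position in the column order (x axis, early to late); grey points are the 16 cells with spike-ins at 50% or more and black lines medians of 16 consecutive cells. Slc25a47, Slc25a51, Slc25a1 and Slc25a5 had lower medians in the last 16 cells than in the first 16, and Slc25a21 and Slc25a37 had higher ones.

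On the late side, Slc25a21 (chr12:56712634-57197472, minus strand), the oxodicarboxylate carrier of lysine and tryptophan breakdown, was above 0 in 14 of the 16 latest and 6 of the 16 earliest large-chip cells. It ran from 0 to 65.9 with a median of 10.9 in late cells, and from 0 to 29.7 with a median of 0 in early cells. The means were 17.2 ± 17.8 and 5.70 ± 10.2, a log2 ratio of 1.44 with overlapping ranges. In cells low in spike-ins the 5 block medians were 0, 0, 0, 6.60 and 10.9. Its large-chip rho was 0.39, and 0.44 in cells low in spike-ins, while the medium and small chips gave -0.067 and -0.14 with 5 cells above 0 each.

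Slc25a37 (chr14:69241848-69285112, minus strand), mitoferrin-1, was above 0 in 15 of the 16 latest and 7 of the 16 earliest cells. It ran from 0 to 105 with a median of 9.20 in late cells and from 0 to 62.1 with a median of 0 in early cells, with means of 27.1 ± 35.4 and 6.45 ± 15.7 and a log2 ratio of 1.91. The medians of the 5 blocks, 0, 1.09, 1.05, 2.12 and 9.20, were all low and highest at the end, but in cells low in spike-ins they were 0, 1.56, 11.65, 4.72 and 9.20, highest in the 7 cells of the third block. Its correlation with the order was 0.38 in the large chip, 0.48 in its cells low in spike-ins, and 0.028 and -0.0034 in the medium and small chips.

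The next members on this side missed the limit. The glycine carrier Slc25a38, which serves heme synthesis, had a rho of 0.2975 in the large chip and was above 0 in 11 late and 5 early cells, with means of 6.39 ± 11.5 and 0.865 ± 2.21. Slc25a33 had a rho of 0.21 and means of 14.6 ± 15.3 in late and 8.38 ± 12.6 in early cells. Slc25a45 had a rho of 0.20 and means of 16.4 ± 18.9 and 6.69 ± 10.6. In the 64 cells low in spike-ins Slc25a38 and Slc25a45 passed the limit at 0.33 and 0.31, which made 4 late members (13.8%, against 3.72% of all genes) beside the same 5 early ones (17.2%, against 7.01%).

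Abundant carriers outside these groups missed the rho limit in the large chip, and their differences between the ends were mixed in size and direction. Slc25a3 had a median of 235 (77.4 to 420) in the latest and 372 (134 to 851) in the earliest cells and a rho of -0.23. Its log2 ratio of -0.74 was larger in size than the -0.29 of Slc25a5. Slc25a11 had a median of 11.8 in late and 25.8 in early cells, a log2 ratio of -1.04 and a rho of -0.12. Slc25a17 had a median of 152 in late and 160 in early cells, and Slc25a39 one of 88.0 and 97.1, with ratios within the spread of the cells. For Slc25a10 the medians were 27 in late and 9.89 in early cells, for Slc25a16 43.5 and 28.97, for Slc25a46 58.2 and 23.7, and for Slc25a44 32.8 and 23.7. The large-chip rho of these 4 lay between -0.024 and 0.12. By the mean, Slc25a16 and Slc25a46 went the other way: Slc25a16 averaged 55.1 in late and 87.3 in early cells, and Slc25a46 64.3 and 81.1.

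Markers of other cell types were measured beside the late members. In the large chip all 10 endothelial markers were above 0, and their sum had a median of 64.4 (6.35 to 504) in the latest and 61.2 (4.48 to 193) in the earliest cells; its rho with Slc25a37 was 0.24 (0.081 in cells low in spike-ins) and that with Slc25a21 0.35 (0.18). Of the 7 erythroid markers found, the globin genes Hba-a1, Hba-a2, Hbb-bs and Hbb-bt and Slc4a1 were at 0 in the large chip; the other 2 summed to a median of 23.8 (0 to 150) in late and 18.2 (0 to 161) in early cells. The erythroid sum had a rho of 0.26 with Slc25a37 (0.074 in cells low in spike-ins) and of 0.35 with Slc25a21 (0.19). The part of these markers in the late members' results was not tested. Of 9 macrophage markers 6 were above 0, with Clec4f, Vsig4 and Marco at 0 and a median sum of 0 at both ends (highest 19.4 late, 807 early). Of 10 stellate cell markers 7 were above 0, with Col1a1, Des and Pdgfrb at 0 and a median sum of 0.77 late (0 to 82.7) and 0.805 early (0 to 1267). Of 8 bile duct markers 7 were above 0, Muc1 was at 0, and the median sum was 8.55 late (0 to 138) and 83.2 early (2.97 to 28313), with a rho of -0.53 with the order. Of 8 lymphocyte markers 3 were above 0, and the highest sum was 2.92 late and 5.04 early. Without the 12 large-chip cells that had at least 3 endothelial or bile duct markers at 10 or more, a choice made after seeing the data, the 5 early and 2 late counts stood as before. The correlation with the column order was then 0.43 for Slc25a37, 0.39 for Slc25a21 and -0.62 for Slc25a47.

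Pairs of members were also compared across the 80 large-chip cells. Of 406 pairs of measured members 88 (21.7%) had a rho of 0.3 or more, against 21.5% of the pairs of all measured genes, so the share was near the background. Slc25a47 and Slc25a51 had the highest rho at 0.61 (0.48 in cells low in spike-ins), followed by Slc25a1 and Slc25a47 at 0.56 (0.42). Slc25a1 also reached 0.54 with Slc25a12 (0.38), 0.52 with Slc25a22 (0.36) and 0.52 with Slc25a17 (0.18), members that missed the early limit. Slc25a21 and Slc25a37 reached 0.52 (0.45). The median over all pairs was 0.17, against 0.20 over pairs of all measured genes, and 0.027 in cells low in spike-ins. All genes of a cell share its depth, and pairs on the same side also share the column order.

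Chips differed in the levels of single members, but the means of the small and medium chips often rested on 1 cell. Of 29 measured members 7 (24.1%) were at least 2-fold higher on average in the large than in the small chip, against 41.9% of all genes, and 6 (20.7%) at least 2-fold lower, against 12.8%. Against the medium chip 8 members (27.6%) were higher in the large chip and 5 (17.2%) lower, where all genes gave 37.5% and 12.7%. Cell sums were not alike: all values of a cell, spike-ins included, had median sums of 1817210 for the large, 5678140 for the medium and 5539880 for the small chip. In cells low in spike-ins 3 members (10.3%) were higher and 10 (34.5%) lower in the large than in the small chip, against 26.7% and 25% of all genes. By the ratio of medians, an alternative chosen after seeing the data, 20 members (69%) were higher and 1 (3.45%) lower in the large than in the small chip, against 65.8% and 0.624% of all genes.

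Of the 6 members lower in the large than in the small chip by their mean, 5 had a median of 0 in the small chip. Slc25a32, a carrier of folate and FAD, averaged 8.96 ± 22.3 in the large chip (39 of 80 cells above 0, highest 119) and 143 ± 627 in the small chip (8 of 39 cells, highest 3265), a log2 ratio of -3.86, and small-chip cell 36 held 58.5% of the small-chip sum. Slc25a28, mitoferrin-2, averaged 2.24 ± 4.60 and 44.9 ± 260, with 92.8% of the small-chip sum in cell 39. Slc25a45 averaged 9.34 ± 14.4 and 115 ± 449, with 47.9% in cell 1. For Slc25a37 the means were 12.9 ± 23.1 and 43.3 ± 258, with 95.7% in cell 36, and for Slc25a1 56.9 ± 71.5 and 149 ± 846, with 90.9% in cell 31. The medians of these 5 were 0 to 37.2 in the large chip. The remaining member, Slc25a25, averaged 104 ± 116 in the large chip (74 of 80 cells above 0) and 228 ± 660 in the small chip (26 of 39 cells), a log2 ratio of -1.12, with 38.04% of the small-chip sum in cell 36. By medians its log2 ratio was 4.23, in the other direction, and by means without cell 36 it was -0.47.

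Small-chip cell 36 held the highest small-chip value of 7 of the 29 measured members, among them Slc25a5 at 5496, Slc25a25 at 3380 and Slc25a47 at 1957. Spike-ins took 25.7% of its values. Without it, in a comparison added after seeing the data, 11 members (37.9%) were higher and 4 (13.8%) lower in the large chip, against 44.6% and 11.3% of all genes, and the log2 ratio of Slc25a37 turned to 2.25.

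Members higher in the large than in the small chip were Slc25a24, Slc25a12, Slc25a33, Slc25a21 and Slc25a16 by the largest ratios. Slc25a24 averaged 7.99 ± 51.5 in the large chip and 0.0687 ± 0.252 in the small chip, a log2 ratio of 3.07, with 67.4% of the large-chip sum in cell 7. Slc25a12 averaged 10.6 ± 19.7 and 1.45 ± 6.03 (log2 ratio 2.24), and 47 of 80 against 5 of 39 cells were above 0. Slc25a33 averaged 9.44 ± 15.8 and 1.71 ± 5.29 (1.94), Slc25a21 7.23 ± 13.4 and 1.32 ± 6.52 (1.83), and Slc25a16 56.6 ± 139 and 17.95 ± 36.5 (1.60). The ranges of all 5 overlapped between chips. The coenzyme A carrier Slc25a42 was the 1 member whose median was at least 2-fold lower in the large chip, at 9.82 in the large and 23.5 in the small chip, with values above 0 in 75 of 80 and 33 of 39 cells.

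Genes around the carriers gave the setting. Of the carrier family members under other symbols, Ucp1 and Ucp3 were not measured. Of the 3 that were, none passed the limit in the large chip. Ucp2, an uncoupling protein, was late in every chip with a rho of 0.25, 0.39 and 0.26. Of all genes 0.692% met that rule. In the same order of chips Mtch1 had a rho of 0.13, -0.023 and 0.11, and Mtch2 one of -0.14, -0.22 and -0.035. Of 19 measured enzymes that make or use the carried metabolites, 5 were early in the large chip. These were Gls2, the liver glutaminase (-0.74), Acly, which cleaves exported citrate (-0.52), Mdh1 (-0.46) and Got1 (-0.39) of the malate-aspartate shuttle, and Fh1, fumarase (-0.34); citrate synthase Cs was late at 0.32. Acly averaged 26.9 ± 21.9 in the latest and 107 ± 54.4 in the earliest large-chip cells, and its substrate's carrier Slc25a1 36.3 ± 21.8 and 107 ± 122. Of 16 other mitochondrial transporters measured 2 were early in the large chip, the serine transporter Sfxn1 at -0.68 and Sfxn5 at -0.30, and none was late. Of 11 members of the import pathway that inserts carriers into the inner membrane none passed the limit on either side. These lists were made with earlier results of these data known and are set beside the 4.82% early and 2% late genes of the background.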

How the data were processed

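RNA was measured in 149 single cells from 1 mouse, in 3 chips. Per the submitters' processing notes, reads passed through CASAVA 1.8.2, Bowtie 0.12.9 and RSEM 1.2.3 on mm10. The authors deposited 1 table of normalised signal, expected counts with 2 decimals for 20308 mouse genes and 92 spike-ins; the normalisation settings and the strand of counting are not given in the sources used here. The commonest value above 0 in a cell ranged from 0.45 to 18.65, and only 7.75% to 27.0% of low values were whole multiples of it, so reads could not be recovered and intervals cover counting of cells only. No columns were identical. Exons of some members overlap genes on the opposite strand, for Slc25a35 by 31.3% of their length, Slc25a33 14.9%, Slc25a11 8.92% and Slc25a46 7.06%. For Slc25a10, Slc25a37, Slc25a25 and Slc25a21 the overlap was 6.60%, 6.33%, 4.82% and 3.88%. Exons of Slc25a51 share 2.27% of their length with a gene on the same strand.

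Genes above 0 in at least 20% of cells were measured. Spearman's rho was taken within each chip, with limits of 0.3 and -0.3; early or late in every chip means 1 sign in all chips and a mean of at least 0.2 in size. Ratios used means with a pseudocount of 1. Ends were 16 cells each. Doublets were not called. The members and lists were chosen with earlier results of these data known. The genes given values included the 12 highest in the large chip by mean value before division by length. The others were up to 5 per direction by rho and by large-over-small ratio, and the members found in fewest cells. Slc25a11, Slc25a42, Slc25a27 and close relatives were added after their values were seen. Upstream sequences are shown in place of proteins. Annotation was GENCODE mouse release M21. The large-chip rho and the large-over-small ratio were tested on the measured values shuffled between cells, with known effects planted. Other steps were not tested in this way. Software was scipy 1.17.1, numpy 2.4.6 and pandas 2.3.3 under Python 3.11.15, with figures from matplotlib 3.10.9. Alternatives covered pseudocount, filter, scaling, cells and chips used, Pearson's r, partial rho and a landmark score.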

Additional observations from a re-analysis of the deposited data

Results flagged for a closer look

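Slc25a45 moved one way along the column order in the large chip and the other way in both other chips. Its rho was 0.20 among the 80 large-chip cells, against -0.25 among the 30 medium-chip and -0.23 among the 39 small-chip cells. The difference between chips was not tested. It was above 0 in 52, 9 and 14 cells of these chips. In cells low in spike-ins its rho was 0.31, 0.61 and -0.085 in the same order, and with the number of genes above 0 held fixed it was 0.074, 0.011 and -0.16, so in both the medium chip had the sign of the large chip.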

How the results depend on the processing

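The number of early members in the large chip was 2 with Pearson's r, against 5, and 3 with a score of 12 landmark genes in place of the column order. The share over all genes was not computed with Pearson's r, the landmark score, a chip left out or no filter. Nor was it for another pseudocount, scaling to the mouse sum, cells with other markers removed, or medians against the medium chip. Counts under these settings therefore have no background beside them. Late members in the large chip numbered 4 in cells low in spike-ins, against 2. Late in every chip were 1 member in cells low in spike-ins, 1 with partial rho given the genes above 0, and 2 without the small chip, against 0. With partial rho 1 member was early in every chip, against 6, and the median large-chip rho was -0.16, against -0.024.

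Higher in the large than in the small chip were 1 member at a pseudocount of 10, 3 in cells low in spike-ins, 20 by medians and 11 without small-chip cell 36, against 7. Lower were 10 in cells low in spike-ins, 10 with no filter and 1 by medians, against 6. Higher than in the medium chip were 2 at a pseudocount of 10 and 18 by medians, against 8. In cells low in spike-ins there were 4 (13.8%), against 24.8% of all genes. Lower than in the medium chip were 8 after scaling to the mouse sum and 0 by medians, against 5. By medians the log2 ratio of large over small turned to 1.64 for Slc25a45, 1.52 for Slc25a37, 4.23 for Slc25a25 and 5.26 for Slc25a1. Without cell 36 the ratio turned to 2.25 for Slc25a37. Medians and the removal of cell 36 or of cells with markers of other types were chosen after seeing the data. The causes of these shifts were not tested. Among the other 47 values under the alternatives, counts equalled the main count or stayed within 1.5 times of it. In these the median large-chip rho ran from -0.050 to -0.0081, against -0.024. The log2 ratio of the summed share, latest over earliest large-chip cells, ran from -0.68 to -0.37, against -0.56. Of the values of single members 95 kept direction and side, 19 dropped below their limit and 2 passed it. No paired analysis was possible because no result comes from a test and the cell numbers only name cells. With 1 mouse and unknown read depth, differences between animals cannot be seen, and low members in shallow cells cannot be told apart from absent ones.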
